A study of Mus musculus with 3 samples.

Results

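Sub-cluster 3 is 1 of the 5 sub-clusters (0 to 4) into which the oligodendrocyte nuclei of this series were divided in the deposited annotation. Its members were taken as every nucleus typed as an oligodendrocyte and carrying the sub-cluster number 3, which gave 132 of 2165 oligodendrocyte nuclei (6.10%) and of 14662 nuclei in all (0.900%). They held 2042649 UMIs, that is unique transcript molecules.

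The data are single-nucleus RNA-seq of lumbar spinal cord from 12 mice aged 90 days. SOD1G93A mice (B6.Cg-Tg(SOD1G93A)1Gur/J) carry a mutant human SOD1 transgene and serve as a model of amyotrophic lateral sclerosis, and the WT mice are C57BL/6J littermates without it. Each genotype has 3 female and 3 male mice. Every pool (A, B and C) combined 4 mice, a female and a male of both genotypes, whose nuclei were told apart by hashtag antibodies. According to the study's supplement, each hashtag stood for the same sex and genotype in all pools. An effect of the hashtag and an effect of the genotype thus cannot be told apart. The transgene is carried by all cells of this line, so whether a difference arises within a nucleus or from its surroundings cannot be told apart.

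Oligodendrocytes wrap axons of the central nervous system in myelin, and their nuclei are recognised by transcripts of myelin proteins such as Mbp (myelin basic protein) and Mobp (myelin-associated oligodendrocyte basic protein). Astrocytes clear glutamate and potassium from the space around neurons, and their nuclei are recognised by transcripts of the glutamate transporter Slc1a2, the water channel Aqp4 and the filament protein Gfap. Both kinds of glia are joined by gap junctions and share part of their developmental origin.

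Members of sub-cluster 3 carried myelin transcripts at a reduced level together with astrocyte transcripts. Levels are given as CPM, the UMIs of a gene per 1000000 UMIs, either of all members together or summed for each mouse. Levels for each mouse are given for the 8 mice with at least 5 members, since the other 4 mice, all SOD1G93A, had 1 to 4. Because the sub-clusters were made from these genes in these nuclei, levels between sub-clusters are descriptions and no test was applied to them.

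The marker genes given with the sub-cluster were present in every mouse. Mbp ranged from 1146.9 to 2221.0 CPM in sub-cluster 3 with a median of 1654.3 over the 8 mice, and from 2304.8 to 3278.1 CPM in the other oligodendrocyte nuclei of the same mice. Mobp (chromosome 9, 120149707 to 120181484, plus strand, in mm10) ranged from 544.2 to 1055.5 CPM against 1080.6 to 1339.1 CPM. Neither marker overlapped between the sets, and sub-cluster 3 was the lower in all 8 mice, by 0.85 ± 0.32 on the log2 scale for Mbp and 0.70 ± 0.40 for Mobp (mean ± SD of the within-mouse differences, n = 8).

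Both markers were nevertheless above astrocyte nuclei in all 8 mice. Mbp ranged from 569.6 to 1038.6 CPM in astrocyte nuclei and Mobp from 84.6 to 206.3 CPM. The markers of the oligodendrocyte label were thus present, at a level between those of the other oligodendrocytes and of astrocytes, and markers of astrocytes were present beside them.

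The 24 genes of myelin and mature oligodendrocytes summed to 11924.2 CPM in sub-cluster 3, 21703.6 CPM in the other oligodendrocytes and 2701.3 CPM in astrocytes. Of these genes 13 were lower than in the other oligodendrocytes in all 8 mice, 1 was higher in all 8 and the remaining genes were mixed, while of all 2171 genes that reached 100 CPM in either set 318 were lower and 381 higher in all 8 mice. The exception, Trf, had 1 UMI in the members, so its value reflects the added prior count. In the CPM of each mouse without a prior, counted after the data had been seen, 14 of the 24 genes were lower and 0 higher in all 8 mice, beside 365 lower and 352 higher of the 2171. The median within-mouse difference of the list was -0.59 on the log2 scale, beside -0.09 for those 2171 genes.

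Among the members of this list, Mog, a glycoprotein of the outer myelin surface, had a mean of 406.0 CPM in sub-cluster 3 against 620.7 CPM in the other oligodendrocytes. St18, a zinc finger factor, had 2334.7 against 4250.1 CPM and lay above its astrocyte level of 158.2 CPM. Car2, the carbonic anhydrase of oligodendrocytes, had 250.2 against 252.0 CPM and differed by less than the spread between mice (0.03 ± 0.26 on the log2 scale, n = 8).

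The 20 genes of astrocytes summed to 11449.3 CPM in sub-cluster 3, 1036.6 CPM in the other oligodendrocytes and 25981.9 CPM in astrocytes. All 20 were higher in sub-cluster 3 than in the other oligodendrocytes in each of the 8 mice (19 of 20 without the prior, the exception being Mlc1), with a median difference of 3.51 on the log2 scale. Of all 2171 genes that reached 100 CPM in either oligodendrocyte set, 381 were higher in all 8 mice (352 without the prior), with a median of -0.09. Against astrocytes the median difference of the 20 genes was -1.19, beside 0.18 for those 2171 genes. Over the 8 mice the list made up 9549.4 to 16151.7 CPM of sub-cluster 3 and 712.6 to 2013.9 CPM of the other oligodendrocytes.

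Slc4a4, a sodium bicarbonate cotransporter of astrocytes, showed the pattern in every mouse. In sub-cluster 3 it stood at 1845.1, 1524.7 and 1731.9 CPM in the female WT mice of pools A, B and C, at 2519.8, 1570.8 and 2745.1 CPM in the male WT mice, and at 1830.9 and 3177.6 CPM in the male SOD1G93A mice of pools A and B. The other oligodendrocytes of these mice ranged from 65.1 to 220.3 CPM and the astrocytes from 3766.8 to 5134.6 CPM. Each of the 8 values lay between both ranges without overlap.

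Slc1a2, the main glutamate transporter, had a mean of 2526.9 CPM in sub-cluster 3, 156.7 CPM in the other oligodendrocytes and 5455.5 CPM in astrocytes. Gpc5, a glypican, had 4658.2, 460.6 and 8319.7 CPM in the same order. Both placed sub-cluster 3 well above the other oligodendrocytes and below astrocytes.

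Ranked over all genes of at least 100 CPM, the genes that set sub-cluster 3 furthest above the other oligodendrocytes were again high in astrocytes. The 12 highest were Trp63 (the transcription factor p63), Gli3 (a factor of hedgehog signalling), Nhsl1, Pdgfd (a platelet-derived growth factor), Gm973, Atp13a4 (an ATPase of the cation pump family), Acsbg1 (an acyl-CoA synthetase), Slc39a12 (a zinc transporter), Slc4a4, Gm3764, Phkg1 (the catalytic subunit of phosphorylase kinase) and Egfr (the receptor of epidermal growth factor). Their differences ran from 5.39 ± 1.20 for Trp63 to 4.21 ± 0.98 for Egfr on the log2 scale (mean ± SD, n = 8). Against the 53 nuclei of oligodendrocyte sub-cluster 4 alone the same 12 differences were smaller, from 2.02 for Gm973 to 3.44 for Trp63. Sub-cluster 4 had only 2 to 10 nuclei in each of these mice. The added prior count raises low levels in such small sums. Over all nuclei of a kind, with no prior, the 20 astrocyte genes summed to 2171.1 CPM in sub-cluster 4. They summed to 812.1, 635.7 and 1379.7 CPM in oligodendrocyte sub-clusters 0, 1 and 2. The part of the prior and of these levels in the smaller differences was not tested. All 12 ranked genes had a lower mean level in sub-cluster 3 than in astrocytes, with ratios from 0.434 for Acsbg1 to 0.606 for Trp63.

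Trp63 (chromosome 16, 25683763 to 25892102, plus strand) ranged from 167.7 to 545.6 CPM in sub-cluster 3, from 2.60 to 20.9 CPM in the other oligodendrocytes and from 443.6 to 699.5 CPM in astrocytes. The ranges of sub-cluster 3 and astrocytes overlapped, while those of both oligodendrocyte sets did not.

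At the other end, the 8 genes that were lowest against the other oligodendrocytes were Hmcn1 (the matrix protein hemicentin), Gm32122, Scel, Lmo7, Art3, Mob3b, Lpcat2 (a lysophosphatidylcholine acyltransferase) and C530008M17Rik. Hmcn1 (chromosome 1, 150562524 to 150993435, minus strand) had 16.5 CPM in sub-cluster 3 and 304.1 CPM in the other oligodendrocytes, a difference of -4.10 ± 1.64 (n = 8). All 8 genes had their highest level in sub-cluster 1. Their sign turned for 6 of the 8 against sub-cluster 4 alone and for 3 against sub-cluster 2 alone. Over all mice together, Hmcn1 had 822.7 CPM in sub-cluster 1, 31.3 CPM in sub-cluster 0, 65.9 CPM in sub-cluster 2 and 7.23 CPM in sub-cluster 4. Scel likewise had 283.3 CPM in sub-cluster 1 and 24.4 CPM in sub-cluster 2, beside 25.5 CPM in sub-cluster 3.

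Ranked against astrocytes, the 8 highest genes were Gm48508, Cldn14, Sec14l5, Prr5l, A330049N07Rik, St18, Enpp6 and Anln, all of which were higher still in the other oligodendrocytes. Sec14l5 had 389.5 CPM in sub-cluster 3, 24.0 CPM in astrocytes and 740.3 CPM in the other oligodendrocytes. The 5 lowest were Gfap, Id4 (an inhibitor of helix-loop-helix factors), the metallothioneins Mt1 and Mt2, and Sdc4 (a syndecan). Gfap (chromosome 11, 102887336 to 102900912, minus strand) had 72.7 CPM in sub-cluster 3 and 318.3 CPM in astrocytes, a ratio of 0.229, the smallest of the 20 astrocyte genes.

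Genes that separate both kinds of glia lay between them in sub-cluster 3. Of 2444 genes with at least 100 CPM in any of the 3 sets, the mean of sub-cluster 3 was between those of the other oligodendrocytes and of astrocytes for 1908 (78.1%). Of the 2444, 604 differed at least 4-fold between astrocytes and the other oligodendrocytes, and the mean of sub-cluster 3 fell between both for 598 of them. On a scale where 0 is the level of the other oligodendrocytes and 1 that of astrocytes, the median position of these genes was 0.446, with quartiles of 0.378 and 0.515.

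The 322 genes that were higher in astrocytes had a median ratio of 0.518 to their astrocyte level, with quartiles of 0.448 and 0.571. The 282 genes that were higher in the other oligodendrocytes had a median ratio of 0.620 to their oligodendrocyte level, with quartiles of 0.535 and 0.712. Few genes lay outside both references in every mouse. Of the 2444 genes, 4 were above both references in all 8 mice (Ppip5k1, Zbtb16, Myo18a and 2610037D02Rik) and 0 were below both. Without the prior count these were 2 (Zbtb16 and 2610037D02Rik) and 0. Zbtb16, a zinc finger transcription factor, had 528.0 CPM against 453.6 CPM in the other oligodendrocytes and 333.6 CPM in astrocytes, and these 4 were named after their values were seen.

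**Figure D1:**
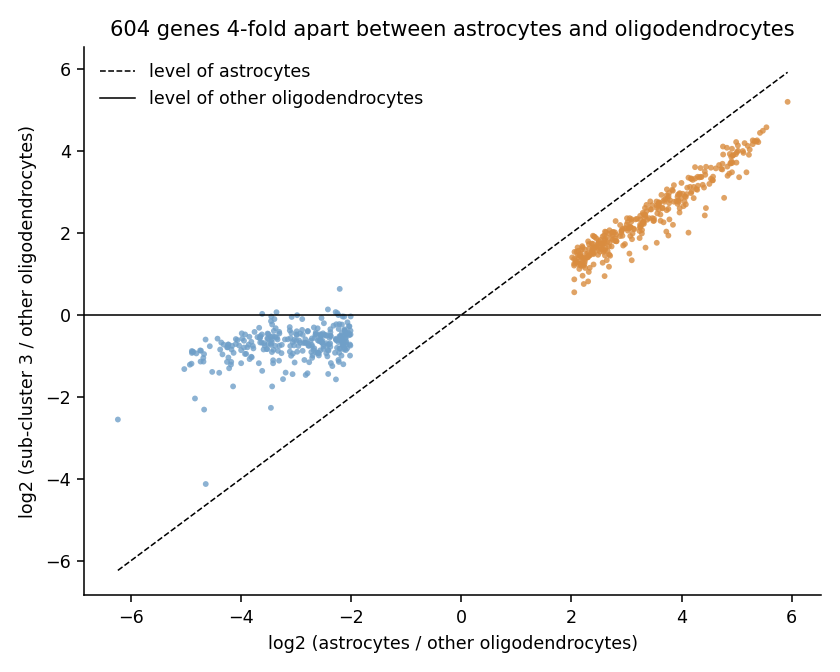
Each point is 1 of the 604 genes that differ at least 4-fold between astrocytes and the other oligodendrocyte nuclei, with that difference on the horizontal axis and the difference of sub-cluster 3 from the other oligodendrocytes on the vertical axis (both log2, mean CPM of 8 mice, 1 CPM added). Orange marks the 322 genes higher in astrocytes and blue the 282 genes higher in oligodendrocytes, and 598 points lie between the solid line (oligodendrocyte level) and the dashed line (astrocyte level).

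Transcription factors of both lineages were present. Of the 7 oligodendrocyte factors, 0 were lower and 1, Olig1, was higher in all 8 mice than in the other oligodendrocytes, beside 318 lower and 381 higher of the 2171 genes. Without the prior count 0 were lower and 0 higher, beside 365 and 352. The median difference was -0.09, the same as over all genes, a value that the added prior raises for genes of few UMIs. The mean within-mouse difference was lower for 5 of the 7 and higher for 2. Summed over the list, the ratio within mice was 0.752 ± 0.180 (SD, n = 8). Olig1, a factor of the whole lineage, had 32.5 against 23.8 CPM, with ranges that overlapped, and 52.5 CPM in astrocytes. Sox10 and Myrf, which drive the myelin programme, had 44.7 and 53.3 CPM in sub-cluster 3 against 77.8 and 88.2 CPM in the other oligodendrocytes and 3.82 and 5.93 CPM in astrocytes. Sox9, a factor of astrocytes, had 47.8 CPM in sub-cluster 3 against 3.63 and 131.1 CPM. Zfp536 had 1050.2 CPM against 1431.8 CPM in the other oligodendrocytes and 89.6 CPM in astrocytes.

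The genes that couple glia to each other did likewise. The connexins Gja1 and Gjb6 of astrocytes had 229.0 and 61.2 CPM in sub-cluster 3 against 19.5 and 5.37 CPM in the other oligodendrocytes, and were higher in all 8 mice. Gjc3, a connexin of oligodendrocytes, had 260.0 CPM against 375.9 CPM and stood at 25.2 CPM in astrocytes. Kcnj10, the potassium channel that both glia use, had 214.2, 116.0 and 289.9 CPM in sub-cluster 3, the other oligodendrocytes and astrocytes.

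Genes of younger oligodendrocyte stages were mixed, and their counts in all 8 mice stand beside 318 lower and 381 higher of 2171 genes. Of the 8 genes of newly formed oligodendrocytes, 3 were lower than in the other oligodendrocytes in all 8 mice (Bcas1, Enpp6 and Sema5a) and 1 was higher (Itpr2, which is itself higher in astrocytes). Enpp6, a phosphodiesterase of newly formed oligodendrocytes, had 139.8 against 325.0 CPM. The 10 genes of oligodendrocyte precursors (OPCs) summed to 2191.8 CPM against 1387.5 CPM in the other oligodendrocytes. The 3 that were higher in all 8 mice, Ptprz1, Sox6 and Xylt1, were higher again in astrocytes, and the OPC marker Tnr had 147.3 against 371.3 CPM. Levels of OPC genes in the other oligodendrocytes rest in part on sub-cluster 4. Over all nuclei of a kind, the OPC markers Tnr, Vcan and Cspg4 summed to 6218.4 CPM there. They summed to 93.1, 95.2 and 207.9 CPM in sub-clusters 0, 1 and 2, and to 174.3 CPM in sub-cluster 3.

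The genes linked to disease states of oligodendrocytes were mixed. Of the 9, 1 was lower in all 8 mice and 1 was higher in all 8, shares near those over all genes (318 lower and 381 higher of 2171), and 7 had a higher mean within-mouse difference, with a median of 0.98 on the log2 scale that the added prior raises for genes of few UMIs. Apod, an apolipoprotein of mature oligodendrocytes, was the lower one (215.1 against 571.0 CPM), and Cd63, a tetraspanin, the higher one (15.5 against 3.01 CPM). The cytokine Il33 had 132.4 and 112.6 CPM. The list summed to 415.1 CPM in sub-cluster 3 and 770.0 CPM in the other oligodendrocytes. The 15 genes of cholesterol synthesis summed to 526.8 and 565.0 CPM over all nuclei, while the ratio within mice was 1.07 ± 0.311 (SD, n = 8), with Fdps at 0 UMIs in the members.

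RNA of other cell types was present at varied levels. The 16 neuron genes summed to 4533.3 CPM in sub-cluster 3, 3995.3 CPM in the other oligodendrocytes, 3989.2 CPM in astrocytes and 17552.5 CPM in neurons, over all nuclei of a kind. Within mice the direction turned, with a ratio of 0.914 ± 0.458 to the other oligodendrocytes and 0.947 ± 0.536 to astrocytes (SD, n = 8), so the level differed from both by less than the spread between mice. The 12 microglia genes summed to 199.3 CPM against 119.6 and 125.4 CPM, and to 361.3 CPM in the microglial nuclei themselves. Beside these, the 10 endothelial and mural genes summed to 82.2 CPM against 44.3 and 120.4 CPM. The 6 ependymal genes summed to 37.2 CPM against 29.2 and 46.3 CPM, and the 10 Schwann and meningeal genes to 62.7 CPM against 52.5 and 144.1 CPM, with Egr2, Slc6a13 and Slc47a1 at 0 UMIs in the members. The 9 immediate early and heat-shock genes summed to 60.2 CPM against 78.1 and 151.4 CPM, with Fosb at 0 UMIs.

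Of the defining markers of these types, the 3 neuron markers summed to 171.3 CPM and the 3 OPC markers to 174.3 CPM (404.1 CPM in the other oligodendrocytes). The 3 motor neuron markers summed to 47.5 CPM and the 3 microglia markers to 32.3 CPM (74.6 CPM in microglial nuclei). Markers of endothelial and mural cells summed to 22.5 CPM, of ependymal cells to 16.6 CPM, of Schwann and meningeal cells to 23.0 CPM and of fibroblasts to 1.47 CPM. The 3 astrocyte markers Aqp4, Aldh1l1 and Gfap summed to 251.1 CPM, against 51.5 CPM in the other oligodendrocytes.

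The oligodendrocyte genes of sub-cluster 3 had proportions closest to those of sub-cluster 2. Over the 24 myelin genes, the log2 ratio of sub-cluster 3 to sub-cluster 2 had an SD of 0.29 between genes around a median of -0.52. Against sub-clusters 0, 1 and 4 the SD was 0.59, 0.97 and 1.25. Opalin, a membrane protein of oligodendrocytes, had 55.8 CPM in sub-cluster 3, 24.4 CPM in sub-cluster 0, 7.10 CPM in sub-cluster 1 and 142.7 CPM in sub-cluster 2. It had the highest ratio of the list against sub-clusters 0 and 1 and the lowest against sub-cluster 2.

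The astrocyte genes had proportions closest to those of astrocyte sub-cluster 2. The SD of the log2 ratios of the 20 genes was 0.20 against astrocyte sub-cluster 2, around a median of -0.36, and 0.36 against astrocyte sub-cluster 1. Against sub-clusters 0, 3 and 4 of the astrocytes it was 0.57, 1.49 and 0.94, and Gfap had the lowest ratio in each of these. Gfap had 44.5 CPM in the members, 69.9 and 79.5 CPM in astrocyte sub-clusters 1 and 2, and 313.1, 1303.3 and 610.5 CPM in astrocyte sub-clusters 0, 3 and 4. These likeness values describe pooled UMIs and depend on the genes listed.

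In single nuclei both sets of transcripts occurred together. The median member had 1.25% of its UMIs on the 24 myelin genes and 1.40% on the 20 astrocyte genes. The median of the other oligodendrocytes was 2.50% and 0.0591%, and of astrocytes 0.179% and 2.92%. The astrocyte share was above the median of the other oligodendrocytes in 132 of 132 members, and above their 99th percentile, 0.587%, in 123 of 132. The myelin share was above the 99th percentile of astrocytes, 1.55%, in 32 of 132 members, and above their 90th percentile, 0.599%, in 125 of 132.

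Since members had more UMIs than the other oligodendrocytes and astrocytes, each nucleus was also reduced at random to 2000 UMIs, which left out 1 member, 101 other oligodendrocytes and 76 astrocytes. Of the 131 members left, 122 (93.1%) had at least 10 UMIs on each list. The same held for 34 of 1932 other oligodendrocytes (1.76%), 224 of 1479 astrocytes (15.1%) and 39 of 8703 neurons (0.448%), a type that should lack both and whose median depth was 12864.5 UMIs. It also held for 30 of 223 microglial nuclei (13.5%), which should lack both too and had a median of 46927.0 UMIs, and for 13 of 178 OPC nuclei (7.30%). Among the 224 astrocytes, 106 were of sub-cluster 4 (of 151 nuclei), 55 of sub-cluster 0 (of 517) and 47 of sub-cluster 3 (of 193). Without this reduction, 96.2% of the members, 1.43% of the other oligodendrocytes and 13.5% of the astrocytes had 0.500% of their UMIs or more on each list. The limit of 10 UMIs was chosen after the values were seen.

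Astrocyte sub-cluster 4 differed from the members in other measures recorded for each nucleus. Its median nucleus had 6.08% mitochondrial UMIs and 5180.5 UMIs, while the median member had 0.273% and 10569.0 UMIs. Its median shares were 0.640% on the myelin list and 2.49% on the astrocyte list, so the balance of both lists also differed from that of the members.

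**Figure D2:**
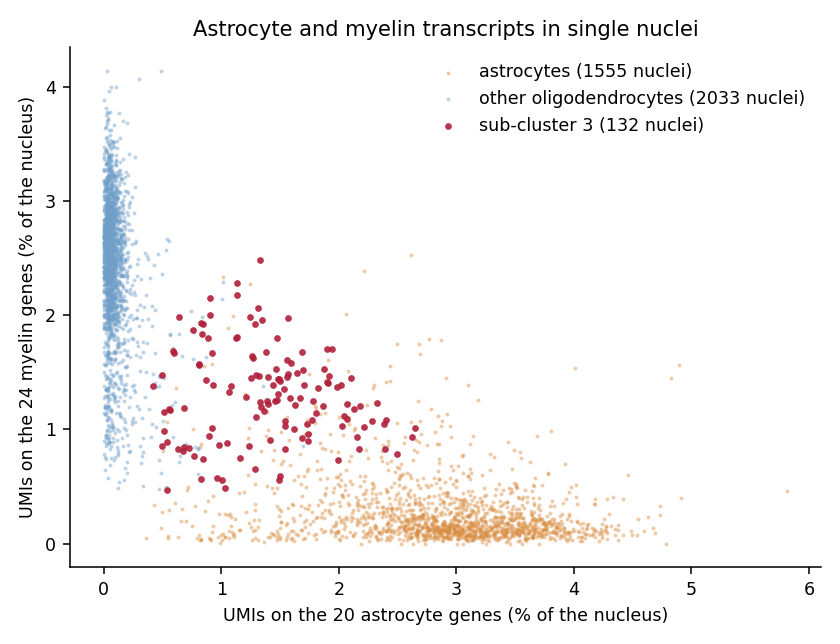
Each point is 1 nucleus, placed by the percent of its UMIs on 20 astrocyte genes (horizontal) and on 24 myelin genes (vertical), for the 132 nuclei of sub-cluster 3, 2033 other oligodendrocyte nuclei and 1555 astrocyte nuclei. Sub-cluster 3 sits between both clouds, with medians of 1.40% and 1.25%.

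Members varied in the balance of both lists. The astrocyte share ran from 0.415% to 2.65% and the myelin share from 0.472% to 2.48%. Over the 132 members, which share libraries and ranged from 1518 to 101325 UMIs, the rank correlation of both was -0.0927. The deposited labels by mapping to a published spinal cord reference split along this balance. Of the members, 94 were mapped to astrocytes, 31 to oligodendrocytes, 5 to neurons, 1 to microglia and 1 to a class named DE_1. The 94 had median shares of 1.56% astrocyte and 1.22% myelin UMIs, and the 31 had 0.841% and 1.68%. The median depth of the 94 was 9407.5 UMIs and that of the 31 was 15062.0 UMIs. Of the other oligodendrocytes 93.5% were mapped to oligodendrocytes.

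The deposited clustering of all nuclei also held the members together. Of the 132 members, 128 came from 1 cluster of 141 nuclei, which held 129 oligodendrocyte, 11 astrocyte and 1 microglial nuclei, and whose automated label in the deposited table was astrocytes. That label was given to the cluster as a whole. Automated labels of single members were mixed. They named 36 members oligodendrocytes, 35 astrocytes, 21 qNSCs (quiescent neural stem cells), 17 granulocytes and 11 activated astrocytes, and the rest other types. The other 4 members were spread over 3 clusters.

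Members had more UMIs than either kind of glia, with a median of 10569.0 against 5596.0 in the other oligodendrocytes and 5338.0 in astrocytes. In each of the 8 mice the median member exceeded both kinds, by 0.842 ± 0.276 on the log2 scale over the other oligodendrocytes (1.79-fold) and by 0.999 ± 0.216 over astrocytes. The number of genes per nucleus was 1.54-fold and 1.58-fold higher. Oligodendrocyte sub-clusters 0, 1, 2 and 4 had medians of 4454.0, 7326.0, 5075.5 and 9023.0 UMIs. As UMIs and genes come from the transcripts that were clustered, these were not tested.

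The hashtag signal is measured on antibodies outside the RNA and was not among the transcripts that were clustered. Median hashtag UMIs of the members were 1446.0, 1622.0 and 1447.0 in WT females, 1369.5, 1587.0 and 1393.0 in WT males (pools A, B and C in turn) and 1411.0 and 1384.0 in SOD1G93A males of pools A and B. The other oligodendrocytes of these mice ranged from 1143.5 to 1416.5. Members were higher in 8 of 8 mice, by 0.201 on the log2 scale or 1.15-fold (exact sign-flip permutation test over the mice, two-sided p = 0.00781, the smallest that 8 mice allow, and 0.0125 after Benjamini-Hochberg adjustment over 8 such comparisons). Against astrocytes the fold was 1.16, again in 8 of 8 mice with the same exact p and adjusted p. Some other types reached similar levels. Over all nuclei of a kind, median hashtag UMIs were 1448.5 in members, 1427.0 in neurons, 1428.0 in OPCs and 1458.0 in endothelial nuclei. Microglia had 2989.0 and ependymal nuclei 1266.0. Their median depths were 10569.0, 12864.5, 10016.0, 6963.0, 46927.0 and 2110.0 UMIs in the same order. Members were not tested against these types.

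Hashtag signal also moves with RNA depth. Among nuclei between the quartiles of the members (6978.2 to 16965.5 UMIs, 66 members, 597 other oligodendrocytes and 369 astrocytes), the fold was 1.09 over the other oligodendrocytes in 8 of 8 mice (exact permutation p = 0.00781, adjusted p = 0.0125). Over astrocytes the fold was 1.09 in 7 of 8 mice (exact permutation p = 0.0156, adjusted p = 0.0208). Within this range members still had 1.12-fold more UMIs than the other oligodendrocytes and 1.19-fold more than astrocytes, each higher in 7 of 8 mice, and the part of this gap in the hashtag values was not tested. The deposited hashtag margin, the gap of the highest hashtag to the next, was higher than in the other oligodendrocytes by 0.192 ± 0.0842 (8 of 8 mice, exact permutation p = 0.00781, adjusted p = 0.0125). At like depth the difference was 0.0635 ± 0.119 and did not pass (exact permutation p = 0.195, adjusted p = 0.195). Against astrocytes of like depth the margin was higher by 0.108 ± 0.101 in 7 of 8 mice (exact permutation p = 0.0312, adjusted p = 0.0357). These comparisons were chosen after the data had been seen.

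The authors discarded droplets whose hashtags came from more than 1 mouse. Droplets that hold 2 nuclei of 1 mouse carry a single hashtag, are not marked in the files, and whether members are such droplets was not tested. The share of mitochondrial UMIs was 0.0370 ± 0.0884 percentage points above the other oligodendrocytes over the 8 mice and 0.581 ± 0.340 below astrocytes. Among nuclei of like depth it was 0.134 ± 0.108 above the other oligodendrocytes, higher in 7 of 8 mice, and 0.442 ± 0.397 below astrocytes. Of the cell barcodes, 15 occurred in more than 1 pool, 2 of them among the members.

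**Figure D3:**
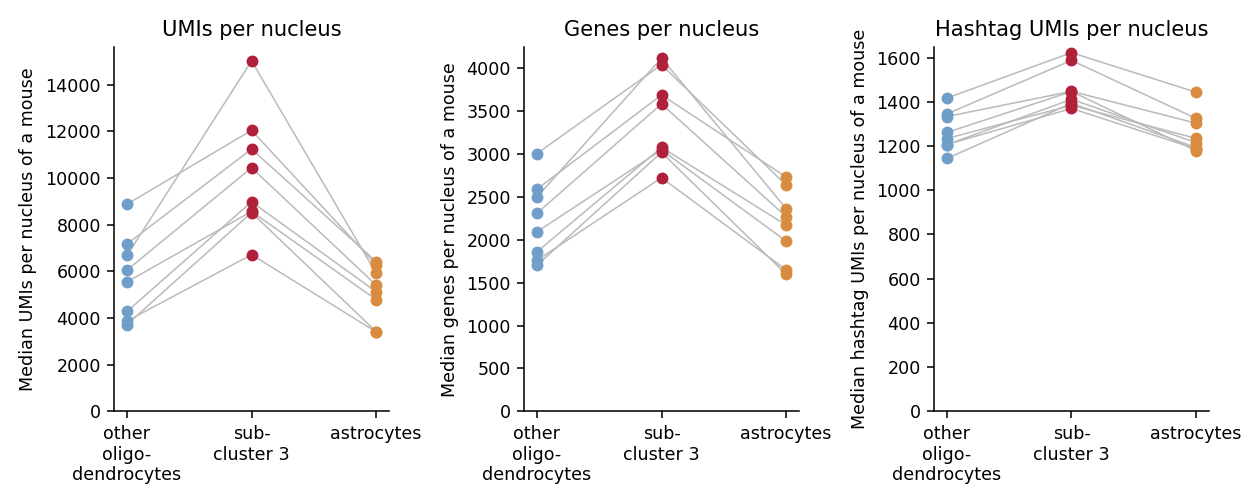
Median UMIs, genes and hashtag UMIs per nucleus (vertical axes) in the other oligodendrocytes, sub-cluster 3 and astrocytes, with 1 point for each of the 8 mice that have at least 5 members and lines joining values of 1 mouse. In each panel the value of sub-cluster 3 is the highest of the 3 in all 8 mice, with medians between 6712.0 and 15015.0 UMIs.

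The share of sub-cluster 3 was lower in most SOD1G93A mice, but the difference did not pass the test. In WT mice it made up 10.3%, 6.74% and 13.1% of the oligodendrocyte nuclei of the female mice of pools A, B and C, and 6.82%, 9.93% and 3.80% of those of the male mice. In SOD1G93A mice the values were 1.87%, 2.11% and 9.09% in females and 7.47%, 2.33% and 0.633% in males. The genotypes overlapped, since 2 SOD1G93A mice lay within the range of the WT mice.

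Together, 101 of 1200 WT and 31 of 965 SOD1G93A oligodendrocyte nuclei were members, and the mean shares were 8.43% ± 3.29 (SD, n = 6) and 3.92% ± 3.47 (SD, n = 6). The share was lower in SOD1G93A in 5 of 6 pairs of mice of 1 sex and pool. The quasi-likelihood test of edgeR gave a log2 difference of -1.27, or 0.416-fold, with an unadjusted p of 0.0433 and an adjusted p of 0.216 over the 5 sub-clusters. The threshold of 0.05 was not passed by any of the 5, and the other 4 had log2 differences from -0.19 to 0.18. An exact sign-flip permutation test over the 6 pairs gave a mean difference of -4.52 ± 3.27 percentage points and p = 0.0625, where 0.0312 is the smallest p possible.

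**Figure D4:**
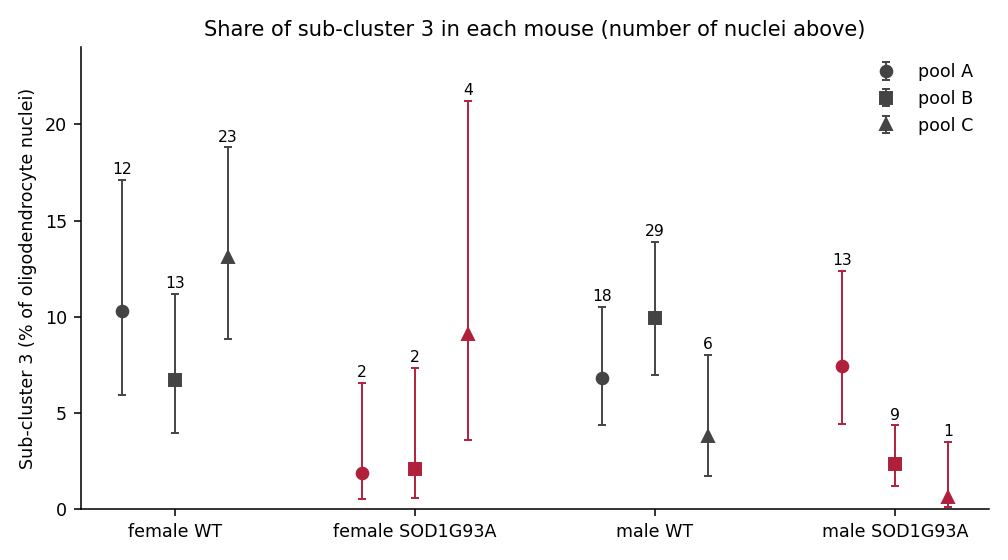
Percent of the oligodendrocyte nuclei of each mouse that belong to sub-cluster 3, by sex and genotype, with the pool as the shape of the point, the 95% Wilson interval as the bar and the number of members above it. The 6 WT mice lie between 3.80% and 13.1% and the 6 SOD1G93A mice between 0.633% and 9.09%.

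The share rested on few nuclei. In pool C, the SOD1G93A male had 1 member among 158 oligodendrocyte nuclei (95% Wilson interval 0.112% to 3.50%) and the SOD1G93A female had 4 among 44 (3.59% to 21.2%). Without that female, or leaving out the SOD1G93A male of pool A, the difference passed the edgeR threshold (adjusted p = 0.0435 and 0.0274 over the 5 sub-clusters), with log2 differences of -1.86 and -1.78. These mice had the highest shares among the SOD1G93A mice (9.09% and 7.47%). Leaving out any other mouse, the difference did not pass (edgeR, adjusted p from 0.164 to 0.762). Within the pools, WT and SOD1G93A shares were 7.87% and 5.34% in pool A, 8.66% and 2.28% in pool B, and 8.68% and 2.48% in pool C, so the direction was the same in each.

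As a share of all nuclei, the means were 1.11% ± 0.338 (WT) and 0.481% ± 0.301 (SOD1G93A; SD, n = 6 each). Members were fewer in 6 of 6 pairs. The exact sign-flip permutation p was 0.0312, the smallest that 6 pairs allow, while edgeR with all nuclei as the library size gave an adjusted p of 0.0595 over the 5 sub-clusters. Astrocyte nuclei made up 10.5% ± 2.54 of all nuclei in WT and 10.7% ± 3.00 in SOD1G93A mice (SD, n = 6), lower in 3 of 6 pairs. Neuron nuclei made up 63.8% ± 5.92 of all nuclei in WT and 52.4% ± 5.35 in SOD1G93A mice (SD, n = 6), lower in 6 of 6 pairs, and the part of this in the share of sub-cluster 3 was not tested.

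Across the 12 mice the share among oligodendrocytes was higher where neurons made up more of the sample. Pearson's r with the neuron percent of all nuclei was 0.739 (permutation p = 0.00726, adjusted p = 0.0218 over 3 relations) and Spearman's rho was 0.678 (permutation p = 0.0186, adjusted p = 0.0559). Without the 2 mice farthest from the median r was 0.628, and on values centred within pools it was 0.896. These permutations kept neither genotype nor pool, and the neuron percent itself moved with genotype. Within genotypes r was 0.713 in the 6 WT and 0.396 in the 6 SOD1G93A mice. Relations with the astrocyte percent (r = -0.445, permutation p = 0.147, adjusted p = 0.155, rho = -0.350) and with the number of nuclei of the mouse (r = 0.436, permutation p = 0.155, adjusted p = 0.155, rho = 0.462) did not pass, nor did either rho (permutation p = 0.266 and 0.134).

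For the effect of genotype on transcripts, UMIs of the members were summed per mouse and tested with limma-voom, with terms for the 4 groups of sex and genotype and for the pool. The sums ran from 10255 to 675443 UMIs, and 3 of the 6 SOD1G93A mice had 12610, 10255 and 13372, so most SOD1G93A UMIs came from the males of pools A (191162) and B (90950). Of 2853 genes tested, 0 differed at FDR < 0.1 (0%), and 133 had an unadjusted p under 0.05. edgeR's quasi-likelihood test and DESeq2 also called 0 genes on the same table, with 90 and 74 at an unadjusted p under 0.05. The smallest adjusted p in limma-voom was 0.987.

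The genes below did not pass and are given for their values. Those of smallest p that were higher in SOD1G93A in at least 5 of 6 pairs included A330015K06Rik, Sod1, Add3 (a protein of the membrane skeleton) and Coro2b (a coronin). A330015K06Rik, an uncharacterised transcript, stood at 350.1 to 503.0 CPM in the 6 WT mice (median 398.1) and at 461.8 to 1427.4 CPM in the 6 SOD1G93A mice (median 890.4). The log2 difference was 0.79 with a standard error of 0.19, and it was higher in 6 of 6 pairs (limma-voom, adjusted p = 0.987). With only the 8 mice of at least 5 members it was 0.31.

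Sod1 (chromosome 16, 90220754 to 90226329, plus strand) is the mouse gene row that can also collect reads of the human transgene. Its level was 22.2 to 120.0 CPM in WT (median 62.0) and 33.8 to 345.3 CPM in SOD1G93A mice (median 190.2), with 78 and 95 UMIs in all. The log2 difference was 1.5 with a standard error of 0.38, with 5 of 6 pairs higher (limma-voom, adjusted p = 0.987). The same fit gave 1.16 in the other oligodendrocytes and 2.31 in astrocytes, both past the threshold in limma-voom (adjusted p = 0.00260 and 3.98e-07).

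Those of smallest p that were lower in SOD1G93A included Gpc6 (a glypican), Tmem132d (a membrane protein), Spock3 (a matrix proteoglycan) and Trio (a guanine nucleotide exchange factor), each lower in 6 of 6 pairs. Spock3 stood at 641.8 to 895.2 CPM in WT (median 730.2) and at 224.3 to 622.5 CPM in SOD1G93A mice (median 483.2). Its log2 difference was -0.61 with a standard error of 0.22 (limma-voom, adjusted p = 0.987). With only the 8 mice of at least 5 members it was -0.23, and -0.94 without the SOD1G93A female of pool C. With no filter on low counts it was -1.01 and passed, in a fit whose median over all genes was 0.66. Tmem132d had 0 UMIs in 3 SOD1G93A mice, which are mice with 1 or 2 members.

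Of the genes named in the study for oligodendrocytes, 3 were too low to be tested in the fit of sub-cluster 3 alone. These were C4b (complement component 4), Aldh1l2 (a mitochondrial folate enzyme) and Pros1 (protein S). C4b had 6 UMIs in the WT and 6 in the SOD1G93A members, Aldh1l2 had 31 and 10, and Pros1 had 36 and 15. These are raw counts, and the WT members held more UMIs in all. As CPM of all members of a genotype together, each of these genes was higher in SOD1G93A. The pairs of mice were mixed. C4b was higher in 2 of 6 pairs and lower in 3, and Aldh1l2 and Pros1 were each higher in 4 and lower in 2. Stat3 (a signalling transcription factor) had 41.5 to 85.8 CPM in WT and 55.0 to 292.5 CPM in SOD1G93A mice, a log2 difference of 1.02 with a standard error of 0.39 (limma-voom, adjusted p = 0.987). It fell to 0.47 when the SOD1G93A male of pool A was left out. In the other oligodendrocytes the log2 differences of C4b, Aldh1l2, Pros1 and Stat3 were 2.27, 1.02, 1.62 and 0.84, all past the threshold in limma-voom (adjusted p = 0.00346, 0.00346, 0.0105 and 0.0734). The absence of calls in sub-cluster 3 does not show that these genes did not differ there.

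**Figure D5:**
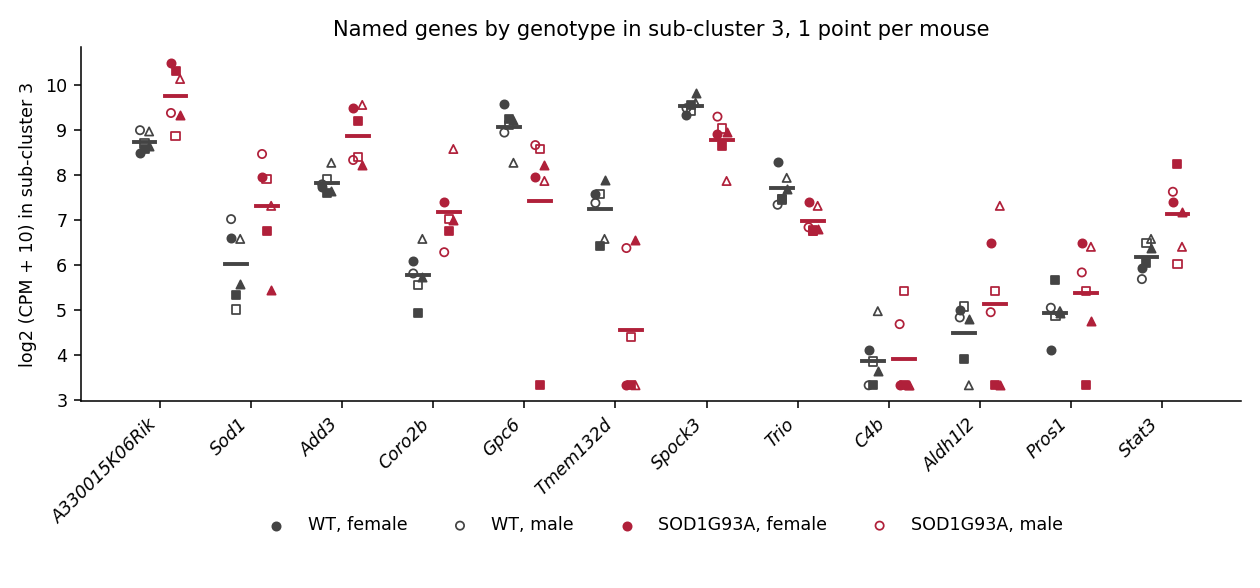
log2 of CPM plus 10 (vertical) in sub-cluster 3 for the 12 genes named in the genotype comparison, with 1 point per mouse, WT in grey and SOD1G93A in red, females filled and males open, pools A, B and C as circles, squares and triangles, and the mean of 6 mice as a line. C4b, Aldh1l2 and Pros1 were not tested in the fit of sub-cluster 3 alone and 0 of the other genes passed. The lowest points are mice with 0 UMIs of a gene.

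By gene group, 19 of the 24 myelin genes were tested, 10 of them with a higher and 9 with a lower estimate in SOD1G93A, and their median log2 difference was 0.01 beside -0.02 over all 2853 genes. Mbp had a log2 difference of 0.02 with a standard error of 0.16. Of the 20 astrocyte genes 17 were tested, 14 with a higher and 3 with a lower estimate, with a median of 0.39. Over all 2853 genes, 1342 estimates were higher and 1511 lower. Gfap had 1.26 with a standard error of 0.54 and Slc4a4 0.42 with 0.21, each higher in 4 of 6 pairs. Slc7a10, the lowest of the list, had -0.48 with 0.41. The same fit in astrocyte nuclei gave 1.12, -0.22 and -0.57 for Gfap, Slc4a4 and Slc7a10. In sub-cluster 3, 0 members of the myelin or the astrocyte list were called.

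The summed level of the astrocyte list in the members was 9549.4 to 15827.1 CPM in WT mice (median 12017.1) and 11179.0 to 20770.4 CPM in SOD1G93A mice (median 14955.9). That of the neuron list was 1222.4 to 6408.7 CPM (median 4471.4) and 890.6 to 5668.1 CPM (median 2152.2). Myelin genes had medians of 12485.0 and 11766.5 CPM. The part of these shifts in the gene values above was not tested.

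The other lists had few tested members and no calls. The median log2 difference was 0.16 for 3 of 7 oligodendrocyte transcription factors, 0.12 for 6 of 8 genes of newly formed oligodendrocytes, 0.07 for 6 of 10 OPC genes, -0.31 for 10 of 16 neuron genes, -0.09 for 2 of 9 disease-associated genes, -0.61 for 3 of 15 cholesterol genes and 0.69 for 3 of 6 genes of gap junctions and potassium. Of the last list, Kcnj10 had 0.82 with a standard error of 0.27 and was higher in 6 of 6 pairs. Gja1 had 0.69 with 0.40 and was higher in 3 of 6 pairs, and the lowest estimate of that list was -0.23. Of the microglia, endothelial and mural, Schwann and meningeal, ependymal, and immediate early and heat-shock lists, 0 genes were high enough to be tested.

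Whether the effect of genotype differed between sub-cluster 3 and the other oligodendrocytes was tested within mice, with both sums of each mouse in 1 limma-voom fit. Of 7246 genes, 0 differed at FDR < 0.1 (0%), with 368 at an unadjusted p under 0.05 and a smallest adjusted p of 0.684. For Stat3 the difference of the effects was 0.09 with a standard error of 0.39. C4b, Aldh1l2 and Pros1 could be tested in this fit. Their differences were -0.61, -0.22 and -0.80, with standard errors of 0.64, 0.49 and 0.46. Leaving out the SOD1G93A male of pool A, which holds 13 of the 31 SOD1G93A members, 3 genes passed as lower, among them Slit2 and Grip1, and 1 as higher, Prom1. In limma-voom the adjusted p of these named genes ran from 0.000808 to 0.0109, and they were named after their values were seen.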

How the data were processed

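Nuclei from the lumbar spinal cord of 12 mice were sequenced as 3 hashtagged pools on the 10x platform. According to the submitters' processing notes and the study's methods, the authors used bcl2fastq 2.20.0.422, Cell Ranger 3.1 with STAR 2.5.1b and a pre-mRNA reference of mm10, and R 4.0.3 with Seurat 4.0.3, assigned nuclei to mice by hashtag, and removed nuclei with hashtags of several mice. The authors deposited UMI counts per gene and nucleus, without normalization, and a table of nuclei with the cell type, sub-cluster, UMIs, genes, hashtag UMIs (counts), the mitochondrial percent, and scores (the hashtag margin and UMAP coordinates). The deposited integrated values were not used.

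Sub-cluster 3, the gene lists and the tests were chosen with earlier results of these data known. The genotype, sex and pool of each mouse come from the deposited tables, since the labels describe pools. UMIs were summed per gene and mouse over sub-cluster 3, over the other oligodendrocyte nuclei and over astrocytes. Within-mouse log2 differences used a prior of 1 UMI in each sum, which raises genes of few UMIs in sub-cluster 3, the smaller sum. Ranked genes were those of at least 100 CPM that moved the same way in all 8 mice with at least 5 members, the 12 highest and 8 lowest against the other oligodendrocytes and the 8 highest and 5 lowest against astrocytes. Genotype genes were those at FDR < 0.1, or, under 5 in a direction, the smallest p up to 5 that moved that way in at least 5 of 6 pairs. Some genes that meet these rules are not reported here.

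Genotype effects used limma 3.58.1 (filterByExpr with a minimum count of 10, TMMwsp, voom, robust eBayes, Benjamini-Hochberg over all genes tested), with edgeR 4.0.16 and DESeq2 1.42.0 as alternatives, in R 4.3.3. Pool was a term in the fits of the genotype effect and of the share, because mice of 1 pool share a library. The fit of the difference between both sets had a term for each mouse instead, and none for sub-cluster by pool. Shares were tested with edgeR. The fits were checked on simulated data. Coordinates are from GENCODE vM21 on the same build. Wilson intervals (95%) cover counting error only. The number of nuclei per mouse, 1 to 29, limits the precision. No doublet caller was run, and no per-sample column was left unused.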

Additional observations from a re-analysis of the deposited data

Results flagged for a closer look

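Among 39 sets of 6 or 8 mice checked for a value far from the others, 2 held one (Dixon's test at the 95% level, by which chance marks about 1 in 20). In the male SOD1G93A mouse of pool C, Coro2b stood at 373.9 CPM, while the other 5 SOD1G93A mice lay between 68.0 and 158.6 CPM, and that value is 5 UMIs of 1 nucleus. In the male WT mouse of pool C, C4b stood at 21.4 CPM on 1 UMI, with the other WT mice between 0 and 7.29 CPM.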

How the results depend on the processing

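Both genotype comparisons stayed at 0 calls with TMM factors, without scaling, with a minimum count of 5, without the robust option and with only the 8 mice of at least 5 members. The first also stayed at 0 in edgeR, in DESeq2, with quality weights, with no pool term (no replicate block, 0 calls and 136 genes at an unadjusted p under 0.05) and without each mouse in turn (0 to 0 higher and lower). For the difference between both sets, leaving out 1 mouse gave 0 to 1 genes higher and 0 to 3 lower. Without any filter on low counts, 1197 genes were called higher and 83 lower in SOD1G93A members, and 4276 higher and 114 lower for the difference. Of these 1280 and 4390 genes, 1079 and 3943 had under 10 UMIs in all members, and the median of all genes moved to 0.66 and 0.95 on the log2 scale.

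The log2 difference of the share ranged from -1.86 to -0.94 without each mouse in turn, and passed without the SOD1G93A female of pool C (adjusted p = 0.0435 in edgeR) and without the SOD1G93A male of pool A (0.0274). It was -1.22 with all nuclei as the library size, -1.16 with TMM factors and -1.25 with no pool term (no replicate block, adjusted p = 0.104 in edgeR), and these 3 did not pass. Against single sub-clusters the median of the myelin list was -0.90 (sub-cluster 0) and -0.20 (sub-cluster 4, but 0.25 from the UMIs summed over all mice, so its direction is not settled), and of the astrocyte list 2.04 (sub-cluster 4). Among the lowest genes the sign turned against sub-cluster 2 for Scel (0.42), Lmo7 (0.17) and Art3 (0.08), and against sub-cluster 4 for Gm32122 (1.87), Scel (0.19), Lmo7 (0.21), Art3 (1.12), Lpcat2 (0.05) and C530008M17Rik (0.60). Of the 20 ranked genes, 4, 9, 5 and 14 moved by more than their SD with their sign kept against sub-clusters 0, 1, 2 and 4, and against sub-cluster 4 the other 6 turned. The cause was not tested. A prior scaled to the total of each sum, chosen after seeing the data, moved Scel from -2.24 to -3.31 and the other 19 ranked genes by less than their SD.

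The members hold 2042649 UMIs, and 4 of 6 SOD1G93A mice have fewer than 5 of them, so most genes could not be tested.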
